A study of Mus musculus with 6 samples.

Results

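The T and NK cell genes are 37 mouse genes that mark T lymphocytes and natural killer (NK) cells, followed here in RNA from blood stem cells sorted out of bone marrow. They were listed by symbol, with no threshold on their values, and all 37 were found among the 41128 genes of the deposited table by Ensembl identifier. The YH250 group held 3 libraries from C57BL mice injected s.c. with 2 mg/kg of YH250, an antagonist of the p300/catenin interaction. The Control group held 3 libraries from C57BL mice given the solvent DMSO. In both groups marrow was collected 16 h after dosing and sorted by flow cytometry for cells without lineage markers, positive for Sca1, c-Kit and CD150 and negative for CD41 and CD48, the phenotype of long-term repopulating stem cells. The antibodies of the lineage mixture are not given in the sources used here. Libraries of each group are numbered 1 to 3 in the labels, which leave the meaning of the number unstated, as well as whether libraries came from separate animals, so every p-value measures the spread between these libraries, which may be technical.

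A T cell recognises antigen through a receptor whose variable chains sit in a complex with the signalling chains CD3 gamma, delta, epsilon and zeta. The kinase Lck phosphorylates those chains, Zap70 binds to them, and the adaptor Lat carries the signal on. NK cells lack that receptor and use lectin-like and immunoglobulin-like receptors, and both lineages kill with granules of perforin and granzymes. Blood stem cells are classed as lineage negative because such surface proteins are absent from them, whereas lymphoid-primed progenitors begin to transcribe part of the lymphoid programme. In bulk RNA, fewer cells of a type and less RNA per cell cannot be told apart.

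Levels are in RPM, reads per 1e6 reads, obtained by subtracting the offset of 1 from the deposited values. One read was worth 0.0321 to 0.0455 RPM, so a gene at 1 RPM rested on about 21.96 to 31.19 reads, and 3 reads, taken as the detection floor, corresponded to 0.0962 to 0.137 RPM. These ranges run over the 6 libraries and reflect their depth. The floor concerns counting error only, not variation between libraries. Stem cell markers were present in every library, with 764 to 1623 RPM summed over 12 genes, but the 6 libraries differed by number. Slamf1, which encodes CD150, was at 1.54 and 4.69 RPM in YH250 3 and Control 3, at 31.5 and 35.5 RPM in YH250 1 and Control 1, and at 3.92 and 0.515 RPM in YH250 2 and Control 2. Cd48, which the sort was to exclude, was at 252 and 258 RPM in YH250 3 and Control 3, against 13.1 and 10.2 RPM in YH250 1 and Control 1 and 66.9 and 31.5 RPM in YH250 2 and Control 2. YH250 2 had 379 RPM of stroma and endothelium markers over 8 genes, against 33.1 to 84.2 RPM in the other libraries.

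Promoters of 4 members are shown because the results below turn on these genes or their neighbours. Cd3d and Cd3g lie head to head on chromosome 9, with starts 1355 bases apart, and Cd3e lies beside them. Klrk1 is an NK receptor gene and Nkg7 a cytotoxic granule gene. Each window runs 5′ to 3′ on the gene's strand from 250 bases before to 50 bases after the start and comes from RefSeq on GRCm38.p6. The windows are chr9:44981536-44981835 on the plus strand for Cd3d, chr9:44980382-44980681 on the minus strand for Cd3g, chr6:129623815-129624114 on the minus strand for Klrk1, and chr7:43436888-43437187 on the plus strand for Nkg7. Capitals mark letter matches, on either strand, to the 5 motifs searched.
Cd3d: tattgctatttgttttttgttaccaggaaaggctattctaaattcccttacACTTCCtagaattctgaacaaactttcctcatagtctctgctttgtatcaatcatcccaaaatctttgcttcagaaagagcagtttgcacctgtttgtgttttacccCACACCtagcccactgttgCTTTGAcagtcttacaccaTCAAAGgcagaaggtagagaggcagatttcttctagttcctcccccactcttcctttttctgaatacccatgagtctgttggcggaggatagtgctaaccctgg
Cd3g: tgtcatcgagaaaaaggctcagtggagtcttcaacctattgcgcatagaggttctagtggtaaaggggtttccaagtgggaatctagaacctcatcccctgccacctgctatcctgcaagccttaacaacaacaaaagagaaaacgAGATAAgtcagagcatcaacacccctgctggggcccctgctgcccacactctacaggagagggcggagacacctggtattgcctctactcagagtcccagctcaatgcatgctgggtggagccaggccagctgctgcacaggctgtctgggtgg
Klrk1: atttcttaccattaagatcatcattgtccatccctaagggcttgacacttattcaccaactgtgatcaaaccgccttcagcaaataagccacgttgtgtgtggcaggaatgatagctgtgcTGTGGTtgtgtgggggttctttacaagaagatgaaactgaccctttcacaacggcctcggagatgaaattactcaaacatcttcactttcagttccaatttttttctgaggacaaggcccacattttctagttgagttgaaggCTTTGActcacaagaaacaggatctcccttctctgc
Nkg7: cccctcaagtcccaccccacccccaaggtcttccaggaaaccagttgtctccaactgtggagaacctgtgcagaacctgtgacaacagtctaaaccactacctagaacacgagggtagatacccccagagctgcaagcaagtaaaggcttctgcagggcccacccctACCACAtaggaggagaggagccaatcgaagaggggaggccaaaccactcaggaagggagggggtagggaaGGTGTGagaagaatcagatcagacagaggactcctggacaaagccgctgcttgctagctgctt

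The motifs were TGTGGT for RUNX factors, GGAAGT for ETS factors, CTTTGA for TCF/LEF factors, AGATAA for GATA factors and GGTGTG for T-box factors. The RUNX and T-box letters can share bases where they adjoin. RefSeq windows were matched for 24 of the 37 members, 28 windows in all, and the pair for Ncr1 overlap. The RUNX letters occurred in 12 of the 28 windows (42.9%), against 16.8% of all 32851 windows. They were in the windows of Nkg7 and Klrk1, and in some but not all of the windows of Zap70 and Lck. The ETS letters also occurred in 12 (42.9%, against 23.8% of all windows), those of Cd3d and Cd3e among them. The TCF/LEF letters were in 6 (21.4%, against 16.0%), the T-box letters in 7 (25.0%, against 19.0%) and the GATA letters in 1, that of Cd3g (3.6%, against 11.2%). These are matches of letters, not sites.

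Compared per length, as RPM per kilobase of merged exon, the most abundant members by median over the 6 libraries were Nkg7 (98.8), Cd27 (48.1), Lat (21.0) and Lck (9.53). Cd3d (7.23), Cd7 (6.71), Cd2 (6.22) and Cd96 (5.74) followed. This order did not hold in every library: on the same scale Cd7 (42.2), Cd2 (22.2), Lck (21.5) and Klrd1 (21.5) were above Lat (15.3) in YH250 3, as were Cd7 (38.3), Klrd1 (26.7) and Lck (14.1) above Lat (13.6) in Control 3. At the low end stood the cytotoxic genes Gzmb (0.0128) and Prf1 (0.0441), the NK receptor Ncr1 (0.0244) and the transcription factor Eomes (0.0281). On the RPM scale, 24 members were above the floor of 3 reads in all 6 libraries and 13 were at or under it in at least 1. None was at or under the floor in YH250 3 or Control 3, against 5 and 9 in YH250 1 and Control 1 and 6 each in YH250 2 and Control 2. At least 5 RPM was reached by 29 members in YH250 3 and 24 in Control 3, against 13 in YH250 1 and 7 in Control 1, and 19 in YH250 2 and 10 in Control 2. The same counts over all genes were not computed at 5 RPM or at the floor. At 1 RPM they were 13201 and 13459 genes in YH250 3 and Control 3. They were 13358 and 13351 in YH250 1 and Control 1, and 12716 and 13071 in YH250 2 and Control 2. The members at 1 RPM numbered 36 and 34, 29 and 18, and 26 and 21 in the same pairs.

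**Figure D1:**
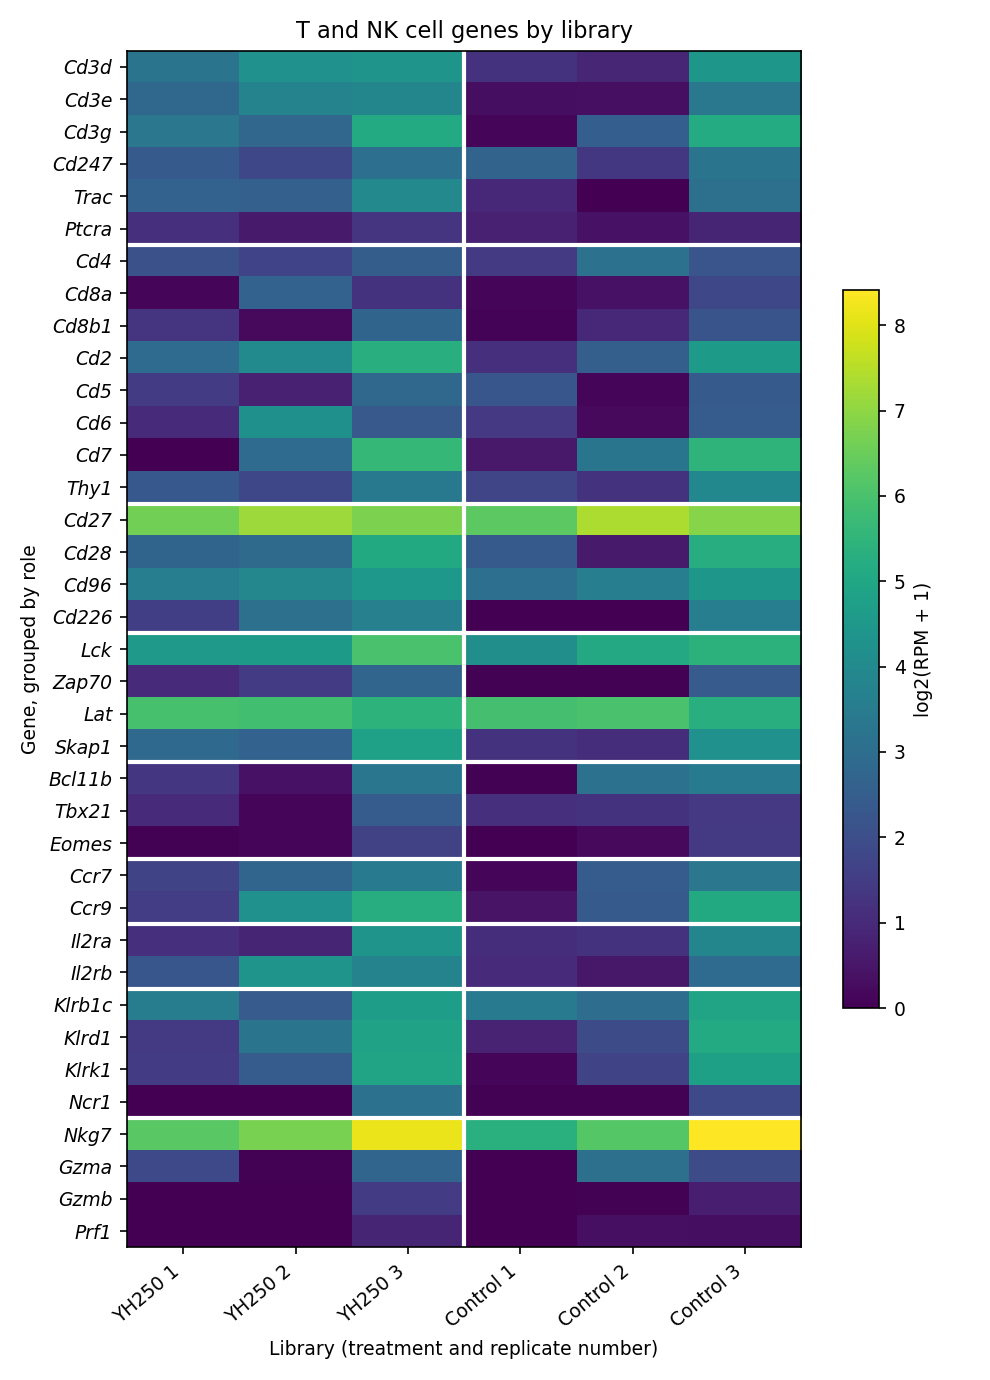
Level of each of the 37 T and NK cell genes as log2(RPM + 1), by library (columns, YH250 left and Control right) and grouped by role (rows, white lines). For 27 genes the columns of YH250 3 and Control 3 are both brighter than the other 4, and Nkg7 and Cd27 are bright in all 6 libraries.

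The libraries numbered 3 carried more RNA of T and NK cell genes than the others, in both treatments. Summed over the 37 genes the level was 995 and 981 RPM in YH250 3 and Control 3, against 364 and 240.1 RPM in YH250 1 and Control 1 and 521 and 416 RPM in YH250 2 and Control 2. Nkg7 and Cd27, chosen after their values were seen, made up a large part of it; without them the sums were 606 and 524 RPM in the libraries numbered 3, against 191 and 124 RPM in those numbered 1 and 271 and 180 RPM in those numbered 2. In both treatments 36 members were higher in number 3 than in number 1, the exception being Lat. The share of all genes higher in both treatments was not computed. Averaged over the treatments, 32 of 33 tested members and 7192 of 13597 tested genes were higher. The total in genes was also larger in YH250 3 and Control 3, at 936080 and 959240 RPM, against 699979 to 849188 RPM in the other libraries. For 27 of the 37 both libraries numbered 3 lay above the other 4, a pattern shown by 8.99% of all genes in the table and 19.9% of the tested genes.

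The difference was tested with limma on log2(RPM + 1), with treatment as a second term, over the 13597 genes whose mean reached 1 RPM, and called at a Benjamini-Hochberg adjusted p under 0.05. Of the members, 33 passed that minimum. Since several passed through the libraries in which they were high, their counts are descriptions. Between numbers 3 and 1, 15 members were called higher and 0 lower, against 5.6% (761) of all tested genes higher and 2.96% (403) lower. The members' median log2 difference was 2.06, that of all tested genes 0.04. Between numbers 3 and 2, 12 members were higher and 0 lower, against 3.67% (499) and 2.64% (359) of all tested genes, with medians of 1.83 and 0.08. Both comparisons use the same number 3 libraries, and 8 members were called in both. The share of all tested genes called in both was not computed. Between numbers 2 and 1, limma called 0 members in either direction, against 0.177% of all tested genes higher and 0.0221% lower. At an unadjusted p under 0.05 it gave 9 of the 33 tested members, against 1939 of the 13597 tested genes.

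These counts rested on few libraries. With a library left out, calls over all tested genes moved in the same direction as those of the members. The shifts given next were thus not particular to the members. The 15 calls between numbers 3 and 1 became 5 without Control 3, 8 without Control 1, 25 without YH250 2 and 26 without Control 2. The 12 calls between numbers 3 and 2 became 1 without Control 3, 2 without YH250 3, 21 without YH250 2, and 19 without Control 2, of which 18 were higher. With each library rescaled to the same total in genes, the median of all genes moved to -0.28 between numbers 3 and 1, and 470 genes were higher and 902 lower; the members then gave 13 higher and 1 lower. Between numbers 3 and 2 the same rescaling gave 353 genes higher and 725 lower, with 9 members higher. The members Cd7, Nkg7, Ccr9 and Klrk1 were called higher between numbers 3 and 1 in all 16 fits run. The share of all genes called in all of these fits was not computed.

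**Figure D2:**
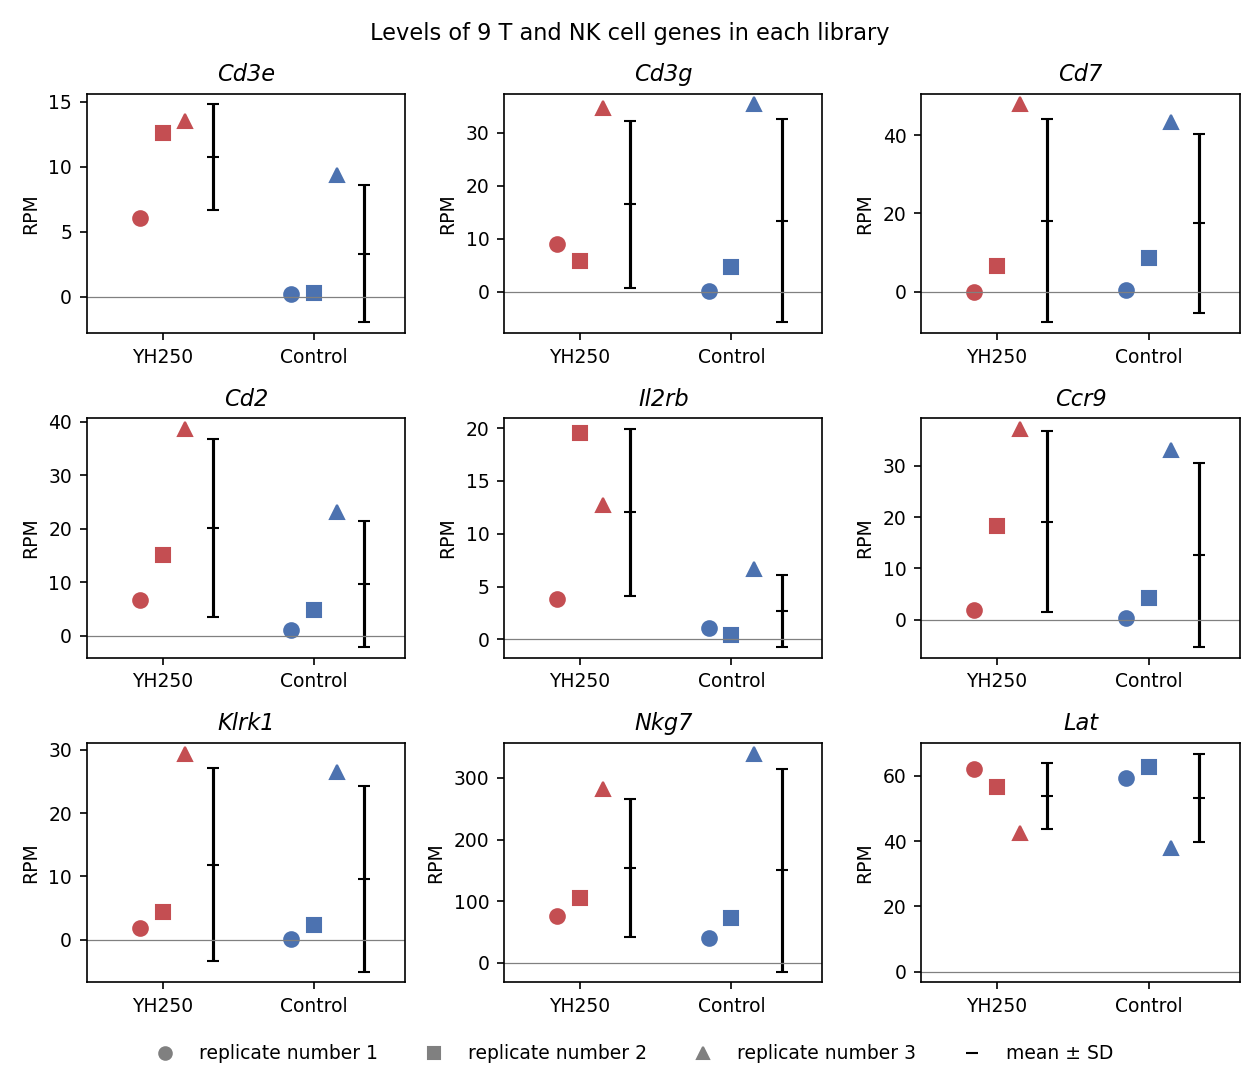
Level in RPM of 9 T and NK cell genes in each library (points, shaped by replicate number; YH250 left, Control right), with the mean ± SD of the 3 libraries of a group in black. Cd7, Ccr9, Klrk1 and Nkg7 are highest in both libraries numbered 3, Lat is lowest there, and Cd3e is below 1 RPM in Control 1 and Control 2 alone.

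Among the T cell receptor chains, Cd3g, the gamma signalling chain (chromosome 9, 44969572 to 44980431, GRCm38), was called between numbers 3 and 1. It stood at 34.6 and 35.3 RPM in YH250 3 and Control 3, at 9.01 and 0.115 RPM in YH250 1 and Control 1, and at 5.84 and 4.67 RPM in YH250 2 and Control 2. Both libraries numbered 3 were thus several times above every other library, and Control 1 was at about the floor of 3 reads. Its log2 difference between numbers 3 and 1 was 3.43 ± 0.71 (SE; limma, adjusted p = 0.0187), and this call was lost without YH250 2, Control 1, Control 2 or Control 3. Trac, the constant region of the receptor alpha chain (chromosome 14), had 14.6 and 7.56 RPM in YH250 3 and Control 3, 5.32 and 0.921 RPM in YH250 1 and Control 1, and 4.96 and 0 RPM in YH250 2 and Control 2. It was called between numbers 3 and 2 (2.24 ± 0.56, limma adjusted p = 0.047), a call lost without either library numbered 3.

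The other CD3 chains were not called between numbers. Cd3d, the delta chain, was at 19.4 and 20.9 RPM in YH250 3 and Control 3, at 8.34 and 1.35 RPM in YH250 1 and Control 1, and at 17.9 and 0.856 RPM in YH250 2 and Control 2. Cd3e, the epsilon chain, was at 13.5 and 9.38 RPM, at 6.03 and 0.230 RPM, and at 12.6 and 0.258 RPM in the same pairs. For both genes the 3 YH250 libraries and Control 3 were high, and Control 1 and Control 2 were low. Cd247, the zeta chain, which NK cells also use, lay between 1.55 RPM in Control 2 and 8.35 RPM in Control 3. Ptcra, the pre-receptor alpha chain of immature thymocytes, stayed between 0.317 and 1.43 RPM and was below the minimum for testing. Fixed as a list beside the members, the other receptor constant regions gave 3 of 5 tested genes called higher in number 3 than in number 1. Against number 2 it was also 3 of 5. The shares of all tested genes were 5.6% and 3.67%. The gamma constant regions Tcrg-C1 and Tcrg-C4 were at 33.9 and 35.2 RPM, and at 14.0 and 13.7 RPM, in YH250 3 and Control 3. Tcrg-C1 was at 1.97 and 0.0384 RPM, and Tcrg-C4 at 0.769 and 0.768 RPM, in YH250 1 and Control 1. The beta constant region Trbc2 had 47.0 and 43.3 RPM in YH250 3 and Control 3, against 14.3 and 4.33 RPM in YH250 1 and Control 1.

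Of the co-receptor and surface genes, Cd7, an immunoglobulin-like protein of T cells, NK cells and their precursors (chromosome 11, 121036747 to 121039418), had the largest log2 difference of all members between numbers 3 and 1. It was at 47.8 and 43.3 RPM in YH250 3 and Control 3, at 0 and 0.499 RPM in YH250 1 and Control 1, and at 6.596 and 8.61 RPM in YH250 2 and Control 2. The pairs did not overlap in any combination, and its value of 0 in YH250 1 allows up to 0.0962 RPM there. The log2 difference was 5.25 ± 0.46 between numbers 3 and 1 (SE; limma, adjusted p = 0.0002) and 2.45 ± 0.46 between numbers 3 and 2 (adjusted p = 0.0165); the call between numbers 3 and 2 was lost without YH250 3 or Control 3. Between numbers 2 and 1 it was 2.80 ± 0.46 (limma, adjusted p = 0.0567).

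Cd2, an adhesion receptor whose mouse ligand is CD48, was at 38.6 and 23.2 RPM in YH250 3 and Control 3, at 6.64 and 1.19 RPM in YH250 1 and Control 1, and at 15.03 and 4.82 RPM in YH250 2 and Control 2. At each number the YH250 library was the higher one. Its log2 difference between numbers 3 and 1 was 2.92 ± 0.44 (SE; limma, adjusted p = 0.00404), a call lost without Control 3. Thy1, a surface glycoprotein of T cells that mouse stem cells carry at a low level, had 9.67 and 14.3 RPM in YH250 3 and Control 3 and 2.56 and 1.32 RPM in YH250 2 and Control 2 (2.15 ± 0.53, limma adjusted p = 0.0438). Cd5, which dampens receptor signalling, had 6.21 and 4.23 RPM in YH250 3 and Control 3 and 0.720 and 0.0736 RPM in YH250 2 and Control 2 (2.18 ± 0.55, limma adjusted p = 0.0492). Both calls were lost without YH250 3 or Control 3.

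The co-receptor genes that divide T cells into helper and killer cells were low. Cd4 ranged from 1.69 RPM in Control 1 to 7.95 RPM in Control 2. Cd8a was at 0.0966, 5.20 and 1.36 RPM in YH250 1, 2 and 3 and at 0.117, 0.334 and 2.56 RPM in Control 1, 2 and 3, and Cd8b1, the partner chain, was at 1.47, 0.170 and 5.602 RPM and at 0.0628, 0.908 and 3.56 RPM. The highest Cd8a level, in YH250 2, thus came with one of the lowest Cd8b1 levels. Cd6, a relative of Cd5, was also highest in YH250 2, at 17.5 RPM, with 0.147 to 4.46 RPM elsewhere. Of these genes Cd8b1 had both libraries numbered 3 above the other 4, and none of the 4 was called between numbers.

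Cd27, a costimulatory receptor of the tumour necrosis factor family that is also carried by multipotent progenitors (chromosome 6, 125232622 to 125237010), was abundant in every library. It had 97.8, 144 and 106 RPM in YH250 1, 2 and 3 and 76.5, 164 and 118 RPM in Control 1, 2 and 3, and was not called between numbers; the libraries numbered 2 were the highest of each group. Cd28, which delivers the second signal for T cell activation, was at 33.8 and 36.6 RPM in YH250 3 and Control 3, at 5.61 and 4.22 RPM in YH250 1 and Control 1, and at 6.48 and 0.515 RPM in YH250 2 and Control 2. Its log2 difference was 2.62 ± 0.60 between numbers 3 and 1 and 3.43 ± 0.60 between numbers 3 and 2 (SE; limma, adjusted p = 0.027 and 0.0122). The first call was lost without YH250 1 or Control 3, and the second without Control 3. Cd226, an activating receptor for nectin-family ligands (chromosome 18), had 11.6 and 11.1 RPM in YH250 3 and Control 3, 1.92 and 0 RPM in YH250 1 and Control 1, and 7.60 and 0 RPM in YH250 2 and Control 2. It was called between numbers 3 and 1 (2.85 ± 0.70, limma adjusted p = 0.0352), but not without YH250 1, Control 1 or Control 3. Cd96, which shares ligands with Cd226, had 21.3 and 20.9 RPM in YH250 3 and Control 3 and 7.37 to 14.0 RPM in the other 4 libraries, and was not called.

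Lck was at 63.1 and 41.2 RPM in YH250 3 and Control 3, at 21.7 and 16.7 RPM in YH250 1 and Control 1, and at 23.1 and 32.8 RPM in YH250 2 and Control 2. Zap70 was at 5.75 and 4.33 RPM, at 0.994 and 0.0384 RPM, and at 1.76 and 0.0368 RPM in the same pairs, so that Control 1 and Control 2 held about 1 read each. Skap1, an adaptor that links the receptor to integrins, was at 27.0 and 18.1 RPM, at 6.38 and 1.34 RPM, and at 5.24 and 1.14 RPM. All 3 genes were highest in the libraries numbered 3 and called between numbers 3 and 1, with log2 differences of 1.38 ± 0.32, 2.06 ± 0.53 and 2.48 ± 0.50 (SE; limma, adjusted p = 0.0306, 0.0431 and 0.0169). These calls were lost without YH250 3, Control 1 or Control 3, and that of Zap70 also without YH250 1. Zap70 passed the minimum for testing only through the libraries numbered 3, so its call is a description. With no minimum mean the adjusted p of Lck, Zap70 and Skap1 were 0.174, 0.131 and 0.1005 (limma). Skap1 was also called between numbers 3 and 2 (2.66 ± 0.50, limma adjusted p = 0.0161), though not without YH250 3 or Control 3.

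Lat went the other way. This adaptor, which platelets and mast cells also use, had 42.4 and 37.7 RPM in YH250 3 and Control 3, against 62.1 and 59.3 RPM in YH250 1 and Control 1 and 56.7 and 62.7 RPM in YH250 2 and Control 2. Both libraries numbered 3 lay below the other 4. The log2 difference between numbers 3 and 1 was -0.59 ± 0.23 (SE; limma, adjusted p = 0.154), which did not pass, although Lat was the 1 member called lower with libraries rescaled to the same total in genes. Megakaryocyte markers summed over 6 genes to 19.0 and 42.1 RPM in YH250 3 and Control 3. They summed to 142 and 141 RPM in YH250 1 and Control 1, and to 54.7 and 53.0 RPM in YH250 2 and Control 2. Mast cell and basophil markers, over 5 genes, were instead highest in number 3. They summed to 77.7 and 32.2 RPM, 3.69 and 0.576 RPM, and 12.6 and 0.405 RPM in the same pairs. The part of either list in the level of Lat was not tested.

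Of the transcription factors, Bcl11b, which fixes T cell commitment, had 8.80 and 10.1 RPM in YH250 3 and Control 3, 1.52 and 0.0404 RPM in YH250 1 and Control 1, and 0.334 and 7.77 RPM in YH250 2 and Control 2. It was not called (log2 difference of 2.69 ± 0.82 between numbers 3 and 1; SE; limma, adjusted p = 0.0749). Tbx21 and Eomes, the paired T-box factors of NK cells and effector T cells, reached 4.42 and 2.19 RPM at most, both in YH250 3, and Eomes was below the minimum for testing. Among related transcription factors, 5 of 18 tested were called higher in number 3 than in number 1, against 5.6% of all tested genes. Id2, which innate lymphoid cells and NK cells need, was at 237 and 241 RPM in YH250 3 and Control 3 and at 34.7 and 7.98 RPM in YH250 1 and Control 1 (3.74 ± 0.41, limma adjusted p = 0.000675). Tcf7, an early T lineage factor, was at 14.6 and 12.7 RPM in YH250 3 and Control 3 and at 2.18 and 0.0384 RPM in YH250 1 and Control 1 (3.01 ± 0.72, limma adjusted p = 0.0337). Satb1, a chromatin organiser of lymphoid cells, was at 203 and 231 RPM in YH250 3 and Control 3 and at 21.8 and 13.3 RPM in YH250 1 and Control 1.

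Both chemokine receptor genes were higher in number 3 than in number 1. Ccr9, the receptor by which lymphoid progenitors reach the thymus (chromosome 9), was at 37.2 and 33.2 RPM in YH250 3 and Control 3, at 1.89 and 0.345 RPM in YH250 1 and Control 1, and at 18.2 and 4.23 RPM in YH250 2 and Control 2. Every library numbered 3 was above, and every library numbered 1 below, the rest. Its log2 difference between numbers 3 and 1 was 4.20 ± 0.51 (SE; limma, adjusted p = 0.00127). Ccr7, which guides cells into lymph nodes and also takes part in thymus entry, was at 10.2 and 9.15 RPM, at 2.31 and 0.115 RPM, and at 5.64 and 4.45 RPM in the same pairs (2.47 ± 0.55, limma adjusted p = 0.0254), and its call was lost without YH250 3, Control 1 or Control 3. The annotated span of Ccr9 overlaps 6 other genes, and reads on either strand could be shared. Between numbers 3 and 1, 5.6% of all tested genes were called higher and 2.96% lower. Among 14 tested genes of other homing receptors 4 were called higher and 0 lower. They included Ccr2, at 39.5 and 55.4 RPM in YH250 3 and Control 3 and 2.28 and 0.922 RPM in YH250 1 and Control 1, and Cxcr6, at 62.9 and 52.6 RPM in YH250 3 and Control 3 and 13.02 and 0.345 RPM in YH250 1 and Control 1.

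The interleukin 2 receptor genes differed from each other. Il2ra, the inducible alpha subunit, was at 19.3 and 13.7 RPM in YH250 3 and Control 3 whereas the other 4 libraries held 0.845 to 1.33 RPM. Its log2 difference was 2.97 ± 0.51 between numbers 3 and 1 and 3.06 ± 0.51 between numbers 3 and 2 (SE; limma, adjusted p = 0.00745 and 0.0103), and both calls were lost without YH250 3 or Control 3. Il2rb, the beta subunit shared with the interleukin 15 receptor, was at 12.7 and 6.65 RPM in YH250 3 and Control 3, at 3.78 and 1.04 RPM in YH250 1 and Control 1, and at 19.5 and 0.441 RPM in YH250 2 and Control 2. YH250 2 was thus its highest library and Control 2 its lowest, and it was not called between numbers. Of 10 genes of the common gamma chain receptors and their signalling partners, 2 were called higher and 1 lower between numbers 3 and 1. The shares of all tested genes were 5.6% and 2.96%. Il7r, the interleukin 7 receptor that lymphoid progenitors depend on, was at 129.6 and 122 RPM in YH250 3 and Control 3, against 6.33 and 1.014 RPM in YH250 1 and Control 1 and 9.46 and 4.20 RPM in YH250 2 and Control 2. The kinase gene Jak3 was lower, at 20.8 and 12.04 RPM in YH250 3 and Control 3 and 38.5 and 67.4 RPM in YH250 1 and Control 1.

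The 4 NK receptor genes were all highest in the libraries numbered 3, and all 4 were called between numbers 3 and 2. Klrk1, an activating receptor for stress ligands (chromosome 6, 129610323 to 129623864), was at 29.4 and 26.5 RPM in YH250 3 and Control 3, at 1.83 and 0.115 RPM in YH250 1 and Control 1, and at 4.44 and 2.28 RPM in YH250 2 and Control 2. Klrd1, the common partner of the Klrc receptors, was at 27.5 and 34.2 RPM, at 1.67 and 0.806 RPM, and at 8.43 and 2.83 RPM in the same pairs. Their log2 differences between numbers 3 and 1 were 4.02 ± 0.52 and 3.85 ± 0.52 (SE; limma, adjusted p = 0.0017 and 0.00233), and that of Klrd1 was lost without Control 3. Klrb1c, the receptor used to stain NK cells of C57BL mice, had 24.4 and 28.9 RPM in YH250 3 and Control 3 but also 10.8 and 9.91 RPM in YH250 1 and Control 1, and 4.32 and 7.04 RPM in YH250 2 and Control 2 (2.08 ± 0.40 between numbers 3 and 2, limma adjusted p = 0.0167). Ncr1, a receptor found on NK cells and some innate lymphoid cells, had 7.84 and 2.64 RPM in YH250 3 and Control 3, while the other 4 libraries held 0 to 0.0384 RPM, that is at most about 1 read. Its fitted log2 differences of 2.48 ± 0.56 in both comparisons with number 3 (limma, adjusted p = 0.0262 and 0.0334) depend on the pseudocount. Ncr1 passed the minimum for testing only through the libraries numbered 3, so its calls are descriptions. With no minimum mean its adjusted p between numbers 3 and 1 was 0.102 (limma). All 4 calls between numbers 3 and 2 were lost without YH250 3 and without Control 3, and that of Ncr1 between numbers 3 and 1 without YH250 1, YH250 3 or Control 1.

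The cytotoxic granule genes split. Nkg7, a membrane protein of killer cell granules (chromosome 7, 43437073 to 43438249), was at 283 and 339.6 RPM in YH250 3 and Control 3, at 75.5 and 39.8 RPM in YH250 1 and Control 1, and at 105 and 71.995 RPM in YH250 2 and Control 2. It was higher in number 3 than in number 1 (2.48 ± 0.27, SE; limma, adjusted p = 0.000735) and than in number 2 (1.82 ± 0.27, limma adjusted p = 0.00679). The genes of the killing proteins were low. Prf1, which encodes perforin, reached 0.834 RPM in YH250 3 and was at 0 in YH250 1, YH250 2 and Control 1. Gzmb, a granzyme, reached 1.79 RPM in YH250 3 and was at 0 to 0.0368 RPM in the libraries numbered 1 and 2. Gzma, another granzyme, had 2.66, 0.0400 and 5.63 RPM in YH250 1, 2 and 3 and 0, 7.54 and 2.87 RPM in Control 1, 2 and 3, with no common order by number. Of 22 tested genes of other NK receptors and effectors, 9 were called higher in number 3 than in number 1 and 0 lower. The shares of all tested genes were 5.6% and 2.96%. The adaptor Tyrobp was at 114 and 129 RPM in YH250 3 and Control 3 and 7.09 and 3.57 RPM in YH250 1 and Control 1, the protease inhibitor gene Cst7 at 52.6 and 40.3 RPM and 2.37 and 0.422 RPM, and the chemokine gene Ccl5 at 102 and 125 RPM and 21.0 and 10.5 RPM.

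**Figure D3:**
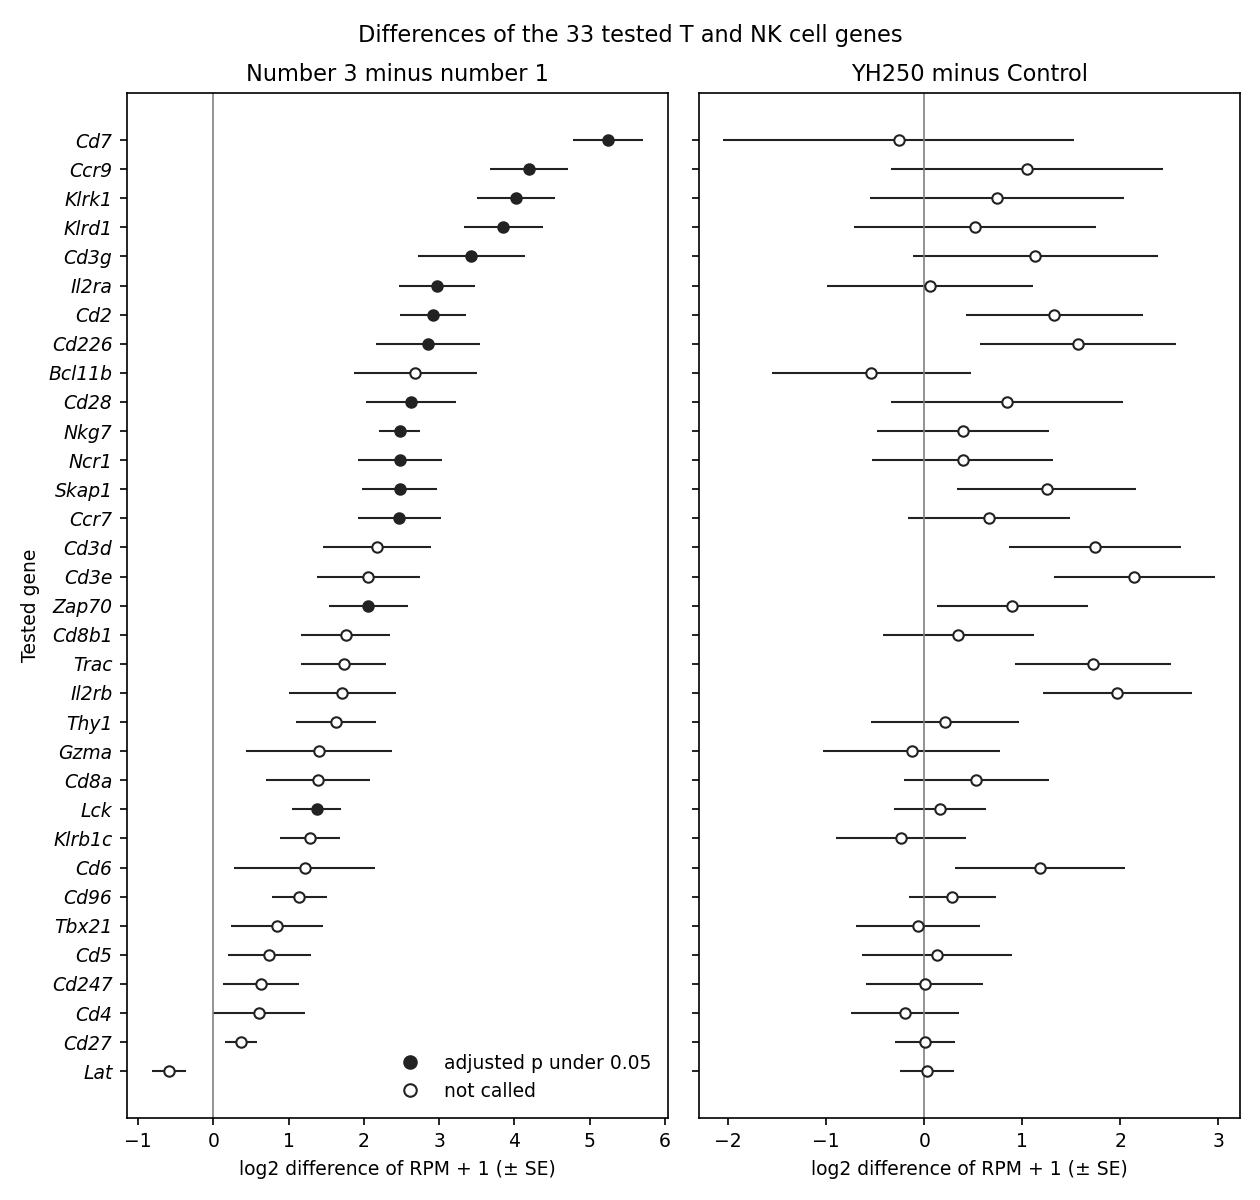
Log2 difference of RPM + 1 (± SE) of the 33 tested T and NK cell genes between replicate numbers 3 and 1 (left) and between YH250 and Control (right), in the order of the left panel. Filled points are the 15 genes at an adjusted p under 0.05, all in the left panel; on the right Cd3e and Il2rb lie farthest above 0, and none is called.

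Between YH250 and Control, limma called 0 members at an adjusted p under 0.05, as it called 0% of all 13597 tested genes in either direction. At an unadjusted p under 0.05 it gave 2 members, Cd3e and Il2rb, both higher in YH250, against 1.7% (231) of all tested genes in both directions and 0.934% higher. With the replicate number as a block it again called 0, and the unadjusted count was 8 members, against 7.44% (1012) of all tested genes in both directions and 4.46% higher. Of the 37 members 29 had a higher mean in YH250 and 8 a lower one, against 35.1% and 32% of all genes in the table and 51.8% and 48.2% of the tested genes. At all 3 numbers 12 of the 37 (11 of the 33 tested) were higher in YH250 and 0 were lower, against 6.92% and 6.69% of all genes in the table and 16.1% and 15% of the tested genes. For 0 members did the 3 YH250 libraries lie wholly above or wholly below the 3 Control libraries, against 1.98% and 1.96% of all genes in the table and 3.79% and 3.68% of the tested genes. The median log2 difference of the tested members was 0.39, that of all tested genes 0.02. It was -0.05 without Control 1, 0.04 without YH250 3, 0.62 without YH250 2, 1.05 without Control 3 and 1.12 without YH250 1.

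The members with the smallest unadjusted p belonged to the T cell receptor chains and the interleukin 2 receptor, and their YH250 and Control libraries overlapped through Control 3. Cd3e averaged 10.7 ± 4.08 RPM in YH250 and 3.29 ± 5.27 RPM in Control (SD, n = 3 each), with a log2 difference of 2.14 ± 0.82 (SE; limma, unadjusted p = 0.0288, adjusted p = 0.999; with the block, adjusted p = 0.66). Trac averaged 8.30 ± 5.49 and 2.83 ± 4.12 RPM in YH250 and Control, Cd3d 15.2 ± 5.99 and 7.71 ± 11.4 RPM, and Il2rb 12.02 ± 7.91 and 2.71 ± 3.42 RPM. Their log2 differences were 1.72 ± 0.80, 1.74 ± 0.88 and 1.97 ± 0.76, none of which passed. Over the 5 tested receptor chains the median log2 difference was 1.99 at number 1 and 2.58 at number 2 but -0.03 at number 3.

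Across the 37 members, 28 were higher in YH250 than in Control at number 1, 22 at number 2 and 25 at number 3. Of the 33 tested, 26, 21 and 21 were higher at numbers 1, 2 and 3, with median log2 differences of 0.65, 0.54 and 0.15. Of all 13597 tested genes, 7459, 7268 and 6021 were higher there, with medians of 0.058, 0.06 and -0.056. At number 1, 14 of the 37 members were more than 1 log2 unit higher in YH250 and 0 more than 1 unit lower. At number 2, 13 were more than 1 unit higher and 4 more than 1 unit lower, namely Cd4, Bcl11b, Tbx21 and Gzma. At number 3, Tbx21 and Ncr1 were more than 1 unit higher and 0 were lower by that much. The 8 members more than 1 unit higher at both numbers 1 and 2 were Cd3d, Cd3e, Trac, Cd2, Cd226, Skap1, Ccr9 and Il2rb. The share of all genes past 1 unit was not computed, so these counts describe the members alone. Each number holds 1 library a treatment, so whether the difference varies with the number could not be tested.

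With the block the 8 members at an unadjusted p under 0.05 were Cd3e, Trac, Cd2, Il2rb, Skap1, Cd3d, Cd226 and Ccr9, all higher in YH250, with adjusted p = 0.66 for each (limma). The NK receptors and granule genes were not among them. Klrb1c averaged 13.2 ± 10.3 RPM in YH250 and 15.3 ± 11.9 RPM in Control, Klrd1 12.5 ± 13.4 and 12.6 ± 18.7 RPM, Klrk1 11.9 ± 15.2 and 9.62 ± 14.6 RPM, and Nkg7 154 ± 112 and 150.5 ± 165 RPM (SD, n = 3 each). Cd27 and Lat differed less between libraries, with 116 ± 24.9 and 119 ± 43.7 RPM, and 53.7 ± 10.2 and 53.3 ± 13.5 RPM, in YH250 and Control. A p above the threshold does not show equal levels, and the standard errors of 0.28 to 1.79 on the log2 scale left room for sizeable differences.

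Markers of other cell types also differed with the number, some lists being higher in number 3 and others lower. Of all tested genes, 5.6% were called higher and 2.96% lower between numbers 3 and 1. Lymphoid-primed progenitor markers, of which 9 of 9 were called higher between numbers 3 and 1, summed to 1864 and 1986 RPM in YH250 3 and Control 3, to 231 and 180 RPM in YH250 1 and Control 1, and to 715 and 587 RPM in YH250 2 and Control 2, with none at 0. Il7r and Satb1 are in this list and also among the related genes above. B cell markers, 8 of 9 tested being called higher, summed to 898 and 699 RPM, 175 and 68.2 RPM, and 301 and 284 RPM in the same pairs, with Pax5 at 0 in YH250 2 and Control 1 and at most 0.273 RPM elsewhere. Plasmacytoid dendritic cell markers, 4 of 6 being called higher, summed to 522 and 542 RPM, 111 and 111 RPM, and 187 and 128 RPM, with Klk1 at 0 in both libraries numbered 1. Stem cell markers, 10 of 12 being called lower and 1 higher, summed to 764 and 852 RPM in YH250 3 and Control 3, against 1329.7 and 1623 RPM in YH250 1 and Control 1. Monocyte and macrophage markers, 1 of 7 tested being called, summed to 543 and 464 RPM in YH250 3 and Control 3 and 239.8 and 138 RPM in YH250 1 and Control 1. The part of any of these in the levels of the T and NK cell genes was not tested.

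Between treatments at number 1, the plasmacytoid dendritic cell markers summed to 111 RPM in both YH250 1 and Control 1. They summed to 187 and 128 RPM in YH250 2 and Control 2, and to 522 and 542 RPM in YH250 3 and Control 3. Of these 6 genes, 1, 6 and 5 were higher in YH250 at numbers 1, 2 and 3. At number 1 the B cell markers summed to 175 RPM in YH250 and 68.2 RPM in Control. The monocyte and macrophage markers summed to 239.8 and 138 RPM there, and the stroma and endothelium markers to 76.7 and 83.9 RPM. At number 2 the B cell markers summed to 301 and 284 RPM, the monocyte and macrophage markers to 349 and 199.99 RPM, and the stroma and endothelium markers to 379 and 84.2 RPM. At number 3 the B cell, monocyte and macrophage, and stroma and endothelium lists summed to 898 and 699 RPM, 543 and 464 RPM, and 33.1 and 37.8 RPM. None of the tested genes of these 4 lists was called between YH250 and Control by limma, and their part in the levels of Cd3e, Cd3d, Trac or Il2rb was not tested.

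**Figure D4:**
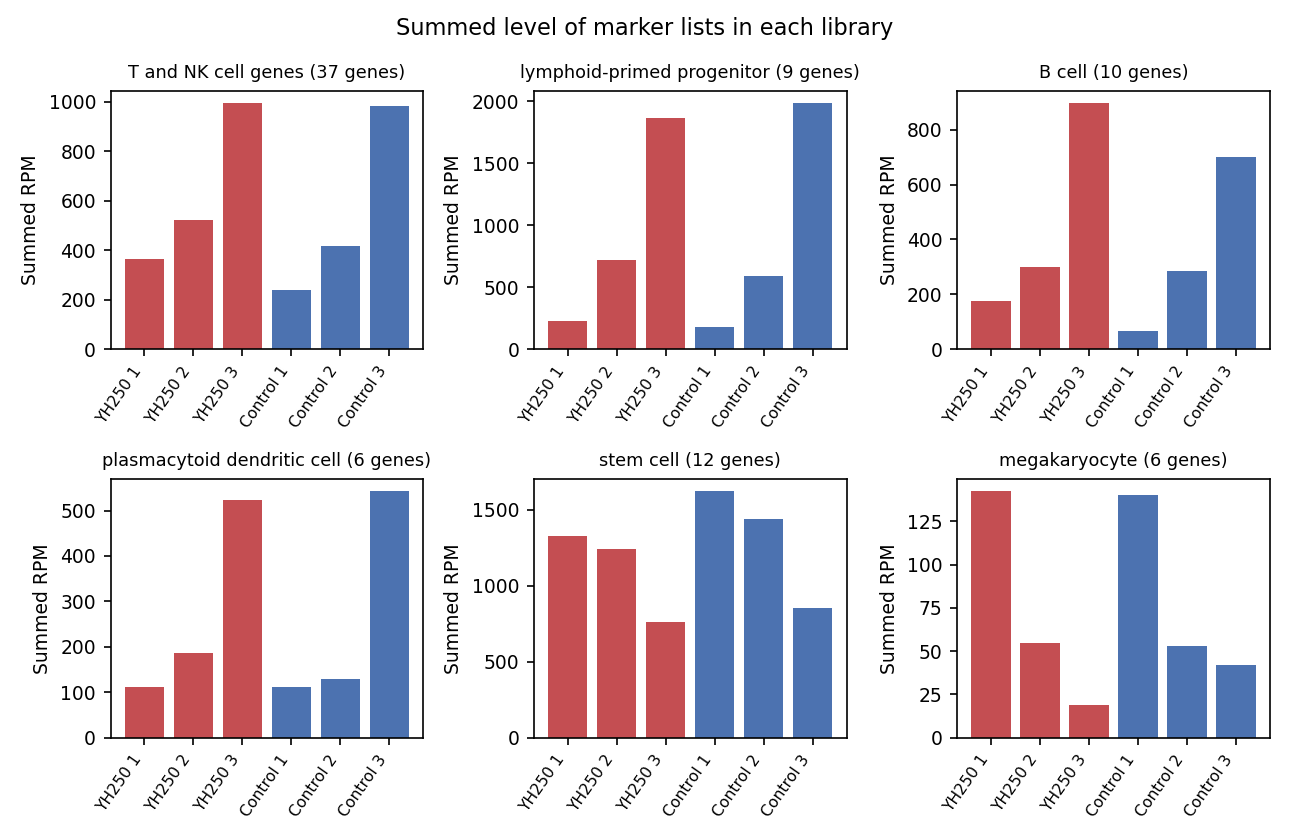
Summed level in RPM of the 37 T and NK cell genes and of 5 marker lists in each library (bars; YH250 red, Control blue). The T and NK cell, lymphoid-primed progenitor, B cell and plasmacytoid dendritic cell sums are highest in YH250 3 and Control 3, where the stem cell and megakaryocyte sums are lowest.

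The other genes of T cell receptor signalling were a list of 36 with 33 tested. Between numbers 3 and 1, 9 were called higher and 0 lower, against 5.6% and 2.96% of all tested genes. Between numbers 3 and 2, 6 were called higher and 1 lower, against 3.67% and 2.64%. Icos, a costimulatory receptor of activated T cells, was at 37.7 and 34.9 RPM in YH250 3 and Control 3, at 6.25 and 0.154 RPM in YH250 1 and Control 1, and at 1.799 and 2.10 RPM in YH250 2 and Control 2. Cd69, an early activation marker that also retains cells in tissue, was at 366 and 290.5 RPM in YH250 3 and Control 3, against 60.3 and 24.1 RPM in YH250 1 and Control 1. Tespa1, a signalling protein of thymocytes, was at 73.7 and 58.2 RPM in YH250 3 and Control 3 and at 8.24 and 2.30 RPM in YH250 1 and Control 1. Their log2 differences between numbers 3 and 1 were 3.69 ± 0.68, 3.06 ± 0.30 and 3.59 ± 0.34 (SE; limma, adjusted p = 0.011, 0.000337 and 0.000306). Between YH250 and Control 0 of the genes in the 6 related lists were called by limma, as in the table as a whole.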

How the data were processed

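Poly(A) RNA was sequenced as 50 bp single-end reads from a full-length low-input cDNA kit, per the labels' protocols. The authors deposited a normalized signal for each gene in each library; its unit is not stated and was read from the values. The lowest value of every column was exactly 1 and the excess of low genes clustered at multiples of 1 step, taken as 1 read, so RPM is the deposited signal minus 1. Of the low values (up to 20 reads), 61.2% to 68.5% lay within 0.1 of a whole read, so counts could not be rebuilt and a log-scale model was used. Per the submitters' processing notes, the tools included TopHat2 2.0.8, CASAVA 1.8.2 and Partek, and the build was mm10. The gene annotation, the assignment of reads and the use of strand are not given in the sources used here, so genes with close copies (Klrb1c, Gzmb) or an overlapping gene (9 members) are uncertain. Symbols were matched for 40254 of 41128 genes, and positions and lengths are from GENCODE M21 on GRCm38.

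Genes averaging 1 RPM or more across the 6 libraries were fitted as log2(RPM + 1) with limma 3.58.1 in R 4.3.3 (eBayes with trend and robust), so log2 differences understate the change of low genes. YH250 minus Control was fitted without a block; contrasts between numbers had treatment as a second term. Both were also run on simulated data with known changes. Those data held no effect of the number, so they do not show which changes the fit without a block could detect. Deviations from the group means correlated at 0.551, 0.256 and 0.696 between libraries of the same number 1, 2 and 3, all above 0.1, so the number was also fitted as a blocking term. Of pairs of unlike number, YH250 1 with Control 2 (0.144) and YH250 2 with Control 1 (0.109) also passed 0.1, and the others were negative. Passing that limit therefore does not show that libraries were paired by number. Members, lists, contrasts and alternatives were chosen with earlier results of these data known. All members are accounted for, and of each related list at most 3 genes are named, those of largest log2 difference past the threshold; 1 such gene is not reported here. Alternatives varied the pseudocount, the minimum mean, the scaling, the weights, eBayes and the libraries.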

Additional observations from a re-analysis of the deposited data

How the results depend on the processing

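Between numbers 3 and 1 the 15 members called became 4 with no minimum mean, where 27592 genes were tested, and 24 with array weights, and ranged from 5 to 26 with 1 library left out. Between numbers 3 and 2 the 12 became 0 with no minimum mean and 3 with eBayes without trend and robust, and ranged from 1 to 21 with 1 library left out. Between numbers 2 and 1 the count of 0 became 1 with a pseudocount of 0.5, a minimum mean of 5 RPM or quantile normalization, and ranged from 0 to 7 with 1 library left out. Leaving out a library leaves a number with 1 library, which is then assumed to vary like the others. Wherever the members' count rose or fell in the fits named so far, the count over all tested genes did too. Between numbers 3 and 1, 157 genes were higher and 23 lower with no minimum mean. With array weights, 1595 genes were higher and 1046 lower there. Between YH250 and Control the count was 0 in every fit, with 1 library left out (0 to 0) and with the replicate block. The median was 0.39 with and without the block, which cannot change it because each number holds 1 library of each group. That median was 0.70 with a minimum mean of 5 RPM and 0.72 without both libraries numbered 3, and ranged from -0.053 to 1.124 with 1 library left out. The cause was not tested. Of the called members' log2 differences, 172 of 223 alternatives between numbers 3 and 1 and 121 of 178 between numbers 3 and 2 kept the call, and none changed sign. Members under 1 RPM rest on at most about 31.19 reads, which limits what can be said of Prf1, Gzmb, Eomes and Ptcra.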

Other observations

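The Klra receptor genes, which encode inhibitory and activating NK receptors that recognise class I molecules in mice, did not exceed 6.12 RPM in any library for the 6 measured. Klra7 was at 0.0641, 5.24 and 5.80 RPM in YH250 1, 2 and 3 and at 0, 0.184 and 2.68 RPM in Control 1, 2 and 3. Klra9 was at 1.802 and 1.37 RPM in YH250 3 and Control 3 and at 0 in the other 4 libraries. Klrc1, whose product pairs with that of Klrd1, was at 26.1 and 13.7 RPM in YH250 3 and Control 3, at 4.12 and 0.106 RPM in YH250 1 and Control 1, and at 0.046 and 3.11 RPM in YH250 2 and Control 2. Foxp3, the factor of regulatory T cells, and Gzmk, a granzyme, did not exceed 1.56 and 0.334 RPM in any library. The Klra genes are close copies of each other, so the split of reads among them is uncertain, and these genes were chosen after their values were seen.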
